A study of Mus musculus with 10 samples.

Results

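The 10 genes described here, of the satellite cell surface and of Notch signalling, were followed in gastrocnemius, the large calf muscle, of mdx mice and normal mice. They are Cdh15, Met, Hgf, Vcam1, Sdc3, Sdc4, Fgfr4, Notch1, Notch3 and Hes1. Every probe set whose platform annotation names 1 gene, equal to 1 of these, was taken. That gave 14 probe sets for 10 genes, of 12488 probe sets on the array. A probe set is a group of short oligonucleotides that together measure 1 transcript. The mdx group had 5 arrays, from male mdx mice aged 16 weeks, and the control group had 5 arrays, from male normal mice of the same age. The mdx strain carries a mutation in the dystrophin gene, and its limb muscle goes through cycles of fibre breakdown and regeneration. The strain of the normal mice was not given in the sources used here. The labels do not tie single arrays to single animals, so a p-value reflects only how far these samples scatter, and part of that scatter may be technical.

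Satellite cells are the stem cells of skeletal muscle and lie between the fibre and its basement membrane. They are recognised by surface proteins such as M-cadherin, Met, the syndecans and Vcam1, and they leave quiescence when hepatocyte growth factor, held in the matrix, reaches the receptor Met. Notch signalling keeps them undifferentiated. A ligand on a neighbouring cell leads to cleavage of the Notch receptor, whose inner part joins the DNA-binding protein Rbpj and switches on genes such as Hes1, a repressor of myogenic transcription.

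Promoter sequence from RefSeq (build GRCm38.p6) covered 8 of the 10 genes, in 9 windows of 250 bases before the annotated start and 50 from it on. Hes1 and Vcam1 are the 2 not covered. Cdh15, which marks satellite cells, and Notch3, which was called higher, are shown as examples of the surface genes and of the receptors. The Cdh15 window lies at chr8:122848124-122848423 on the plus strand and the Notch3 window at chr17:32166841-32167140 on the minus strand, both written 5′ to 3′. Capitals mark the letters CANNTG, the E-box that myogenic factors such as MyoD can bind, searched on both strands in Cdh15.
Cdh15: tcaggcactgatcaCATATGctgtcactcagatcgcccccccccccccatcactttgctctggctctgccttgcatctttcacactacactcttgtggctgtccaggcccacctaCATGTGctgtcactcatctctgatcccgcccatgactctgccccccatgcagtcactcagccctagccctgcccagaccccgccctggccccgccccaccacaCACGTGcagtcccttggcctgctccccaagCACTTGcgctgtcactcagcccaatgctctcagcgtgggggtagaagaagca
Notch3: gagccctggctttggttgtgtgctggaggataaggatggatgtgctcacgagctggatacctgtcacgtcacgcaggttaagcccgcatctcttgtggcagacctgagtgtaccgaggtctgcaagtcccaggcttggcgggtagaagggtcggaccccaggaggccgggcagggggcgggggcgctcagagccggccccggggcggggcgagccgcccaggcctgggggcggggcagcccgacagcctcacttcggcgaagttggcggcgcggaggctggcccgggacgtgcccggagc
The Cdh15 window held 4 matches, beginning at positions -236, -135, -32 and -2 from the start. No CANNTG and no TGGGAA, the core of the site that Rbpj binds, was found on either strand of the Notch3 window. CANNTG was also present in the windows of Met, Hgf and Fgfr4, so in 4 of the 8 genes, against 72.3% of all 32851 promoter windows. CAGCTG, 1 form of the E-box, which is counted within CANNTG, was in 0 of the 8 genes and in 16.3% of all windows. TGGGAA was in Met and Hgf and in 25.6% of all windows. A match is a description of these letters and not a binding site, and its absence from the window says nothing about the factor.

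Each deposited value is an intensity with no log taken, and many lie below 0. Noise levels named below were taken from these values, and whether they reflect scatter about 0 was not tested. Values below 0 made up 19.7% to 22.6% of each mdx array and 22.8% to 23.8% of each control array, and these ranges do not overlap. Trimmed means were 723.1 to 800.8 on mdx arrays and 800.8 to 800.9 on control arrays, mdx replicate 1 being the low one. The spiked hybridization controls, which do not come from the muscle, had geometric means of 5936 to 7940.1 on mdx arrays and 9762 to 12868 on control arrays, and these ranges do not overlap. Actin, read at both ends of its transcript as a sign of RNA quality, had a 3′ over 5′ ratio of 0.952 to 1.08 in mdx and 1.07 to 1.16 in control. Dmd, which encodes dystrophin, gave 159 to 237 in mdx and 643 to 1003 in control. Markers of the tissue labelled here, such as Ckm and Acta1, were bright in both groups. Pax7, the defining transcription factor of satellite cells, was on the marker list. It had no probe set annotated to it alone, so it was not analysed here.

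Of the 14 probe sets, 5 passed the filter for the comparison, an intensity above 134.2 on at least 5 of the 10 arrays, as did 61.3% of all 12422 probe sets that are not controls. These 5 stood for Cdh15, Vcam1, Notch1, Notch3 and Hes1, while Met, Hgf, Sdc3, Sdc4 and Fgfr4 had no probe set that passed. Two-sided limma tests on log2(intensity + 372.4), with Benjamini-Hochberg adjustment over all 7612 tested probe sets, gave 2 higher (Vcam1 and Notch3), 1 lower (Hes1) and 2 that did not pass (Cdh15 and Notch1). Of all tested probe sets, 15.8% were called higher and 17.8% lower in mdx. The log2 changes below are on this offset scale, which understates the change of dim genes. The intensities of single arrays are given in replicate order 1 to 5.

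**Figure D1:**
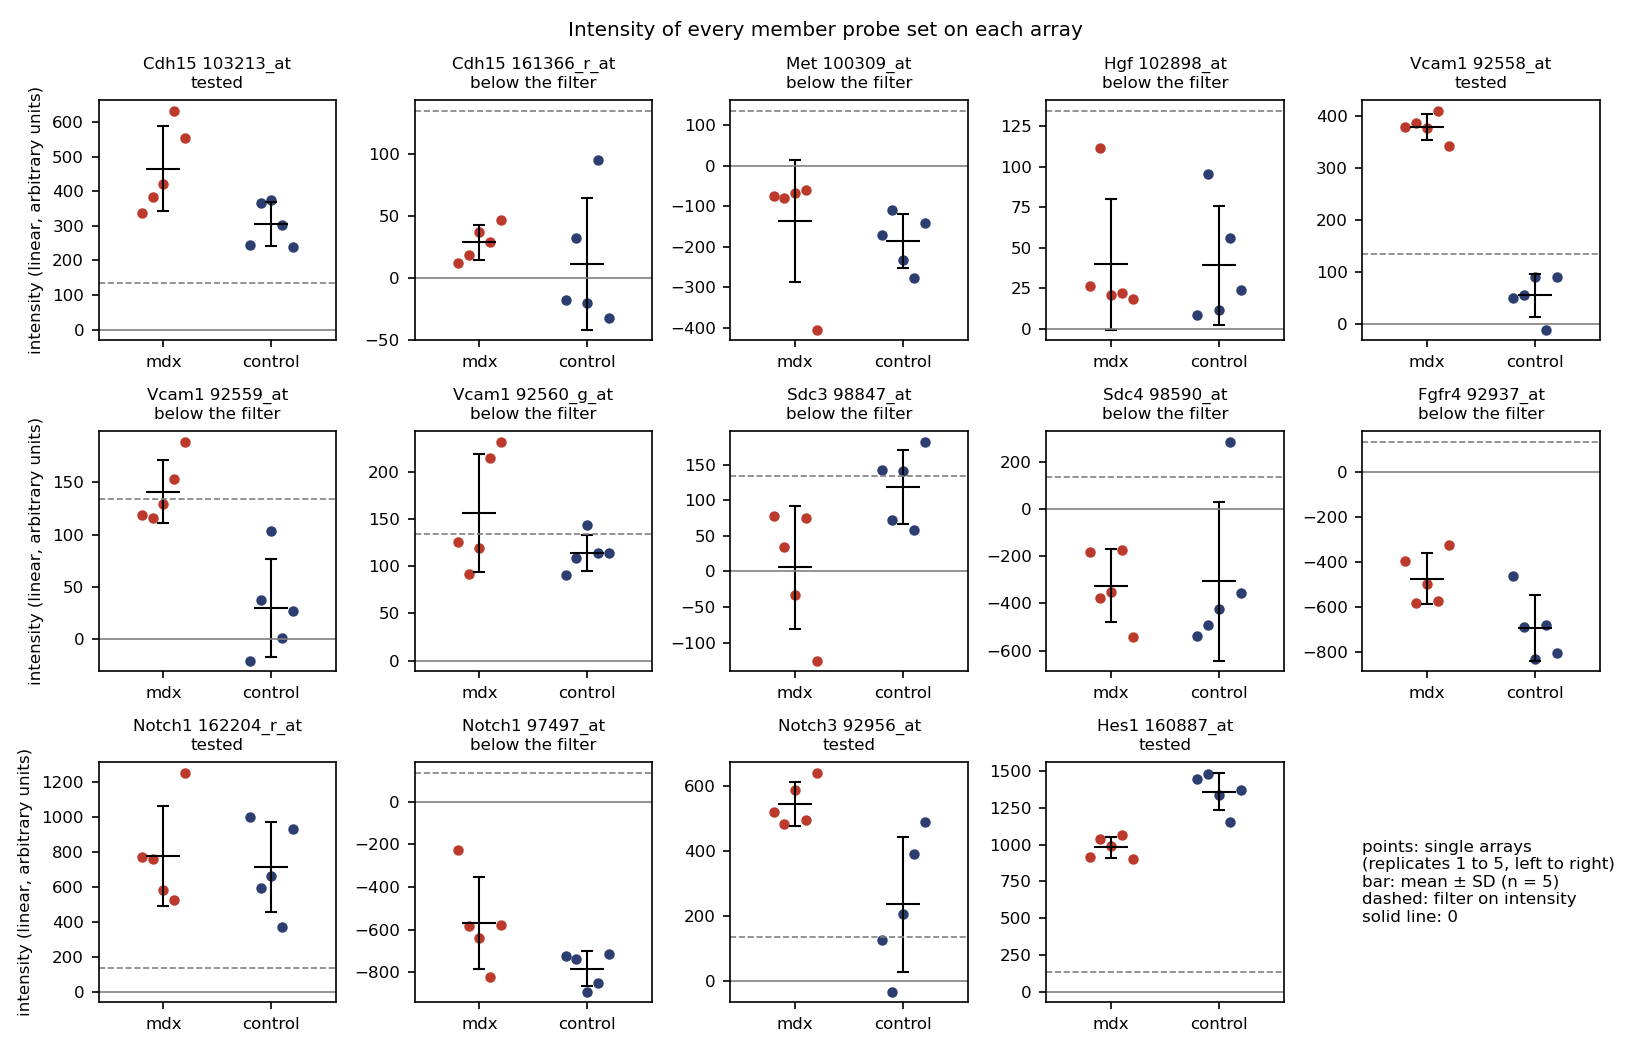
Intensity (linear, arbitrary units) of each of the 14 probe sets on every array, mdx left of control, with 1 panel per probe set, points for single arrays, bars for mean ± SD (n = 5), a dashed line at the filter of 134.2 and a solid line at 0. The groups are apart for Vcam1 (92558_at and 92559_at, mdx above) and Hes1 (mdx below), and Met, Fgfr4 and 1 probe set of Notch1 lie below 0 on all arrays.

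Among the adhesion molecules, Vcam1, the endothelial and satellite cell ligand of the integrin made of Itga4 and Itgb1, was higher in mdx muscle. Its probe set 92558_at gave 379.7, 388, 377, 410.1 and 343 in mdx, against 50.1, 56.4, 90.4, -11.0 and 89.4 in control. Every mdx array lay above every control array, as was the case for 12.3% of all tested probe sets. The means were 379.5 ± 24.3 in mdx and 55.1 ± 41.3 in control (SD, n = 5 each), and limma put the log2 change at 0.81 with an SE of 0.086 (adjusted p = 1.35e-05). By p, this was rank 301 of the 7612 tested probe sets. It passed the filter through its mdx arrays alone, with 5 of 5 above 134.2 in mdx and 0 of 5 in control, so that a probe set of this kind had to differ to be tested. With all control arrays below 156.8, a noise level taken from the median of the values below 0, the mdx level was at least 2.42-fold higher. Set against 372.4, the root mean square of those values, the bound was 1.02-fold, and with all values raised to that level the log2 change was 0.05 (adjusted p = 0.174). In whole muscle, a change in the number of cells of a type and a change in RNA per cell cannot be told apart, here or in any result that follows.

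The other Vcam1 probe sets were dimmer and did not pass the filter. For 92559_at the intensities were 119, 116, 129, 153 and 188 in mdx, against -20.4, 37.4, 104, 1.35 and 26.7 in control. The groups again did not overlap, with a log2 difference of 0.34 (exact permutation p = 0.00794, the smallest that 5 arrays against 5 can give). With no filter, limma called this probe set too (adjusted p = 0.00871). The third, 92560_g_at, gave 91.7 to 231 in mdx and 90.1 to 143 in control, which overlap (log2 difference 0.11, exact permutation p = 0.246). Across all 14 probe sets the groups did not overlap for 2 with mdx above and 1 with mdx below, against 17.5% of the 12422 probe sets that are not controls.

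Cdh15, or M-cadherin, which holds the satellite cell to its fibre, did not pass the test. Its brighter probe set, 103213_at, gave 337, 383, 422, 631 and 552 in mdx, against 244, 365, 373, 302 and 238 in control. The 3 highest values were all from mdx, but mdx replicate 1 lay below control replicates 2 and 3. The means were 465 ± 123 in mdx and 304 ± 64.2 in control (SD, n = 5 each), with a log2 change of 0.30 (95% interval 0.05 to 0.55, limma adjusted p = 0.0627). It was called without mdx replicate 1 (log2 change 0.36, adjusted p = 0.0374), with all trimmed means made equal (0.31, adjusted p = 0.0444) and with the filter on all 10 arrays (0.30, adjusted p = 0.0403). Scaling each array to its hybridization controls gave 0.62 (adjusted p = 0.00161), and relative to the median probe set Cdh15 stood at 0.33 as deposited and 0.28 with those controls. Its other probe set, 161366_r_at, lay at 11.9 to 46.4 in mdx and -32.7 to 95.1 in control, below the filter on all arrays.

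The members of the growth factor and co-receptor groups gave little signal. Hgf, the ligand that activates satellite cells, gave 26.2, 112, 20.6, 21.9 and 18.4 in mdx, against 8.48, 95.4, 11.6, 55.9 and 24.0 in control, so no array reached the filter. The log2 difference was 0.0016 (exact permutation p = 0.992). Met, its receptor tyrosine kinase, was below 0 on all 10 arrays, at -404 to -59.2 in mdx and -276 to -109 in control. Such values set no level, so the data cannot say whether Met differed between the groups.

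Fgfr4, the fibroblast growth factor receptor prominent in myoblasts, was likewise below 0 on all arrays, at -581 to -323 in mdx and -828 to -460.2 in control. On the linear scale the mdx values were less negative (difference 218, exact permutation p = 0.0476), a difference between values that carry no level. Of the syndecans, heparan sulphate proteoglycans that present growth factors to their receptors, Sdc4 was below 0 on all mdx arrays, at -544 to -174, and on 4 of 5 control arrays, at -539 to 283. Sdc3 gave 78.5, 33.6, -33.7, 75.3 and -125 in mdx, against 143, 71.6, 141, 58.8 and 182 in control. The control values were on the whole higher, with 3 of 5 above the filter and 0 of 5 in mdx, but the ranges overlap. The log2 difference was -0.26 (exact permutation p = 0.0476). Leaving out mdx replicate 2, 3 or 5, or control replicate 1, 3 or 5, gave an exact permutation p of 0.0952 each, and with no filter limma gave an adjusted p of 0.0714.

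Among the Notch receptors, Notch3 was higher in mdx and Notch1 did not pass. Notch3 is known for its expression in vascular smooth muscle and pericytes as well as in satellite cells. It gave 519.8, 484, 588, 497 and 641 in mdx, against 127, -32.8, 206, 392 and 491 in control. The mdx arrays kept within a narrow range and the control arrays were spread widely, with control replicate 5 just above the lowest mdx array. The means were 546 ± 66.7 in mdx and 236 ± 209 in control (SD, n = 5 each), and limma gave 0.64 on the log2 scale with an SE of 0.19 (adjusted p = 0.0222). The call was lost without control replicate 1 (0.58, adjusted p = 0.0517), and with no filter (0.64, adjusted p = 0.0709). It was also lost without mdx replicates 1 and 5 together (0.60, adjusted p = 0.0922).

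Notch1, the receptor whose activation accompanies satellite cell expansion, gave 769, 761, 579, 527 and 1251 in mdx with probe set 162204_r_at, against 1002, 591, 661, 370.3 and 933 in control. The arrays of the 2 groups intermingled. The log2 change was 0.09 (95% interval -0.32 to 0.50, limma adjusted p = 0.765), and it was -0.04 without mdx replicate 5 and -0.04 without control replicate 4. The other Notch1 probe set, 97497_at, was below 0 on all arrays, at -824 to -227 in mdx and -891 to -717 in control. Whether the change of Notch3 differed from that of Notch1 was not tested.

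Hes1, the transcriptional target of Notch, was lower in mdx muscle as deposited, a sign that turned when arrays were set to the level of the hybridization controls. The intensities were 915, 1036, 988, 1067 and 899.9 in mdx, against 1445, 1483, 1339, 1157 and 1374 in control. All mdx arrays lay below all control arrays, as did 12.7% of all tested probe sets. The means were 981 ± 73.4 in mdx and 1360 ± 127 in control (SD, n = 5 each), and limma gave -0.35 on the log2 scale with an SE of 0.080 (adjusted p = 0.00436). Scaling each array to its spiked hybridization controls shifted the median of all tested probe sets up by 0.38 and gave Hes1 a log2 change of 0.13 (adjusted p = 0.471). Relative to the median probe set, Hes1 was lower under both scalings, by -0.32 as deposited and -0.22 with the hybridization controls. Relative to the same medians, Vcam1 stood at 0.84 and 0.67 and Notch3 at 0.67 and 0.59.

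**Figure D2:**
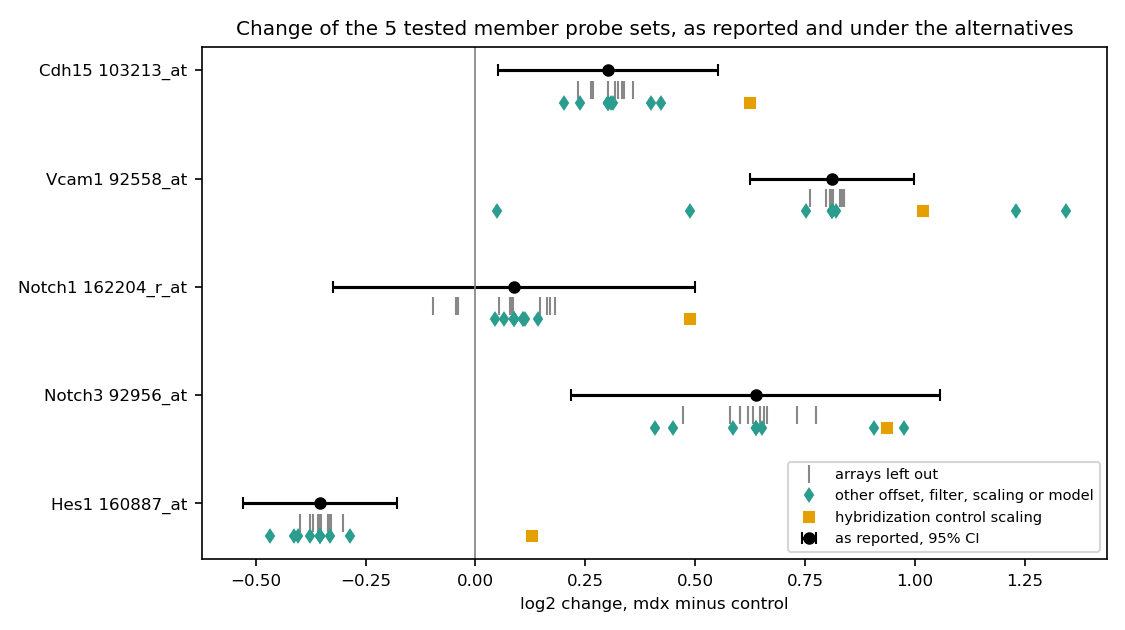
Log2 change, mdx minus control, of the 5 tested probe sets (black, with 95% interval), with the values when arrays were left out (grey ticks), under other offsets, filters, scalings or models (green) and under scaling to the hybridization controls (orange). Hes1 lies below 0 except at 0.13 under that last scaling, Vcam1 and Notch3 lie above 0 throughout, and Notch1 lies on both sides.

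Called genes of the Notch pathway list went in both directions. Of its 39 genes, 24 had a probe set annotated to them alone. Of its 16 tested genes that are not among the 10, 3 were higher in mdx, 2 were lower and 11 did not pass. These counts lay near the shares over all tested probe sets, 15.8% higher and 17.8% lower. The median over the list with its members was -0.03, against -0.03 over all tested probe sets. Adam10, the protease that makes the first ligand-dependent cut in Notch receptors, had a mean of 541 ± 47.7 in mdx and 291 ± 79.7 in control (log2 change 0.47, adjusted p = 0.00263), although another of its probe sets did not pass, at 0.04. Rbpj had 397 ± 77.7 in mdx and 245 ± 40.7 in control (0.31, adjusted p = 0.0232), a call lost in 5 of 22 alternatives, among them without mdx replicate 4 or control replicates 2 or 5. Hes6, a relative of Hes1 that opposes it and promotes muscle differentiation, had 590.1 ± 108 in mdx and 235 ± 113 in control, and the groups did not overlap (0.68, adjusted p = 0.00217). The gamma-secretase subunit Psenen and the fringe glycosyltransferase Rfng were called lower at -0.33 and -0.24, but these calls were lost in 19 and 13 of 22 alternatives. With the hybridization controls both changed sign, to 0.20 and 0.30, while relative to the median probe set they stood at -0.15 and -0.04. Notch2 did not pass with its brighter probe set (-0.13, adjusted p = 0.758) and was called higher with the other (0.70, adjusted p = 7.2e-05). Notch4 did not pass, at -0.06. The ligands Dll1, by its brighter probe set, and Jag2 were below 0 on all arrays, at a highest value of -130.3 and -599 in mdx and -152 and -544 in control. Jag1 was on the list but had no probe set annotated to it alone.

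**Figure D3:**
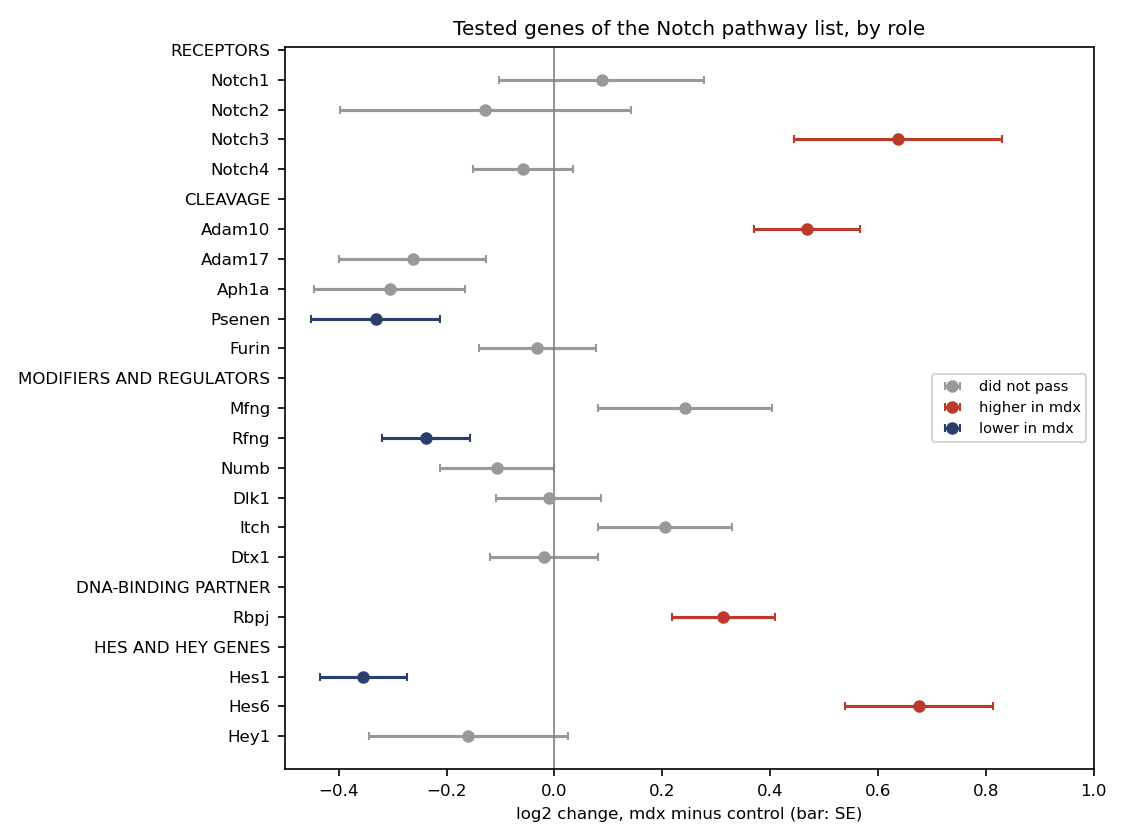
Log2 change, mdx minus control, with its SE (bars), of the 19 tested genes of the Notch pathway list, grouped by role and coloured by call. Notch3, Adam10, Rbpj and Hes6 were higher, and Psenen, Rfng and Hes1 were lower as deposited, these 3 changing sign with the hybridization controls while staying below the median probe set of that scaling.

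Around Met and Fgfr4, few signalling genes were called. The counts of the HGF and Met list and of the FGF list were near or under the shares over all tested probe sets. Those shares were 15.8% higher and 17.8% lower. Of 11 tested genes of the HGF and Met list, none of them a member, 1 was higher, 2 were lower and 8 did not pass, with a median of -0.16. Shc1, an adaptor downstream of receptor tyrosine kinases, had 726 ± 88.1 in mdx and 318 ± 123 in control (0.69, adjusted p = 0.000994). Gab1, the docking protein of Met, was called lower at -0.38 (adjusted p = 0.0396), with its other probe set at -0.51, but the first call was lost in 13 of 22 alternatives. Plau, urokinase, which can activate the precursor of Hgf, was called lower at -0.36 (adjusted p = 0.0281). That call was lost in 8 of 22, among them without mdx replicates 1 or 4 and without control replicates 2, 3 or 5. With the hybridization controls Gab1 and Plau stood at -0.06 and -0.04, and neither was called. Relative to the median probe set of that scaling, they stood at -0.40 and -0.39. Of 9 tested genes of the FGF list, 1 was higher, 1 was lower and 7 did not pass, with a median of -0.07. Fgf6, a growth factor made largely by skeletal muscle, had 201 ± 59.4 in mdx and 394 ± 69.8 in control (-0.42, adjusted p = 0.00626), a call lost with the hybridization controls and with values raised to the noise level. Dusp6, a phosphatase of ERK induced by FGF signalling, had 551 ± 109 in mdx and 287 ± 62.4 in control (0.48, adjusted p = 0.00369). Fgfr1 did not pass, at 0.15.

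Among heparan sulphate proteoglycans and their enzymes, 3 of 13 tested genes were higher, 1 was lower and 9 did not pass, with a median of 0.07. Over all tested probe sets, 15.8% were called higher and 17.8% lower, and whether this list differed from those shares was not tested. Sdc2, the syndecan next to Sdc3 and Sdc4 in this family, had 751 ± 121 in mdx and 255 ± 171 in control, with no overlap (0.87, adjusted p = 0.00235). Ext1, which builds the heparan sulphate chain, had 708 ± 180 in mdx and 272 ± 156 in control (0.76, adjusted p = 0.00238), and Hspg2, perlecan, was higher at 0.37 (adjusted p = 0.0139). Gpc1, a glypican anchored in the membrane by a lipid, was called lower at -0.38 (adjusted p = 0.00219) and changed sign to 0.22 with the hybridization controls, under which it was still below the median probe set, at -0.13 relative to it. Sdc1 did not pass, at -0.19.

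The adhesion list had the highest median of the 5, 0.34 with its members, against -0.03 over all tested probe sets. That median includes Vcam1 and Icam1, which passed the filter through their mdx arrays alone and had to differ to be tested. The list was also chosen with earlier results of these data known, so its contrast with all probe sets is not independent of them. Of 10 tested genes that are not members, 5 were higher, 0 were lower and 5 did not pass at a limma adjusted p below 0.05. Icam1 is 1 of those 5 higher genes. Over all tested probe sets, 15.8% were called higher and 17.8% lower. Icam1, which like Vcam1 is an adhesion ligand for leukocytes, had 234 ± 36.0 in mdx and 19.9 ± 27.2 in control (0.61, adjusted p = 7.56e-05), passing the filter through its mdx arrays, and this call was lost with values raised to the noise level of 372.4. Cd82, a tetraspanin found on satellite cells, was higher at 0.65 (adjusted p = 0.000505) and the laminin receptor Itga7 at 0.55 (adjusted p = 0.00106), and each had another probe set that did not pass, at 0.30 and 0.10. Ctnna1, which ties cadherins to actin, was higher at 0.46 (adjusted p = 0.00327), and Cd34 at 0.38 (adjusted p = 0.0153). Of the direct partners, Itgb1 and Ctnnb1 did not pass, at 0.08 and 0.13, and Itga4 did not pass the filter, at 70.7 to 218 in mdx and 35.9 to 135 in control. The chemokine receptor Cxcr4 gave 132 to 252 in mdx and 9.33 to 60.0 in control, with every mdx array above every control array. It was not tested, because 4 arrays, all of mdx, exceeded the filter where at least 5 were needed.

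**Figure D4:**
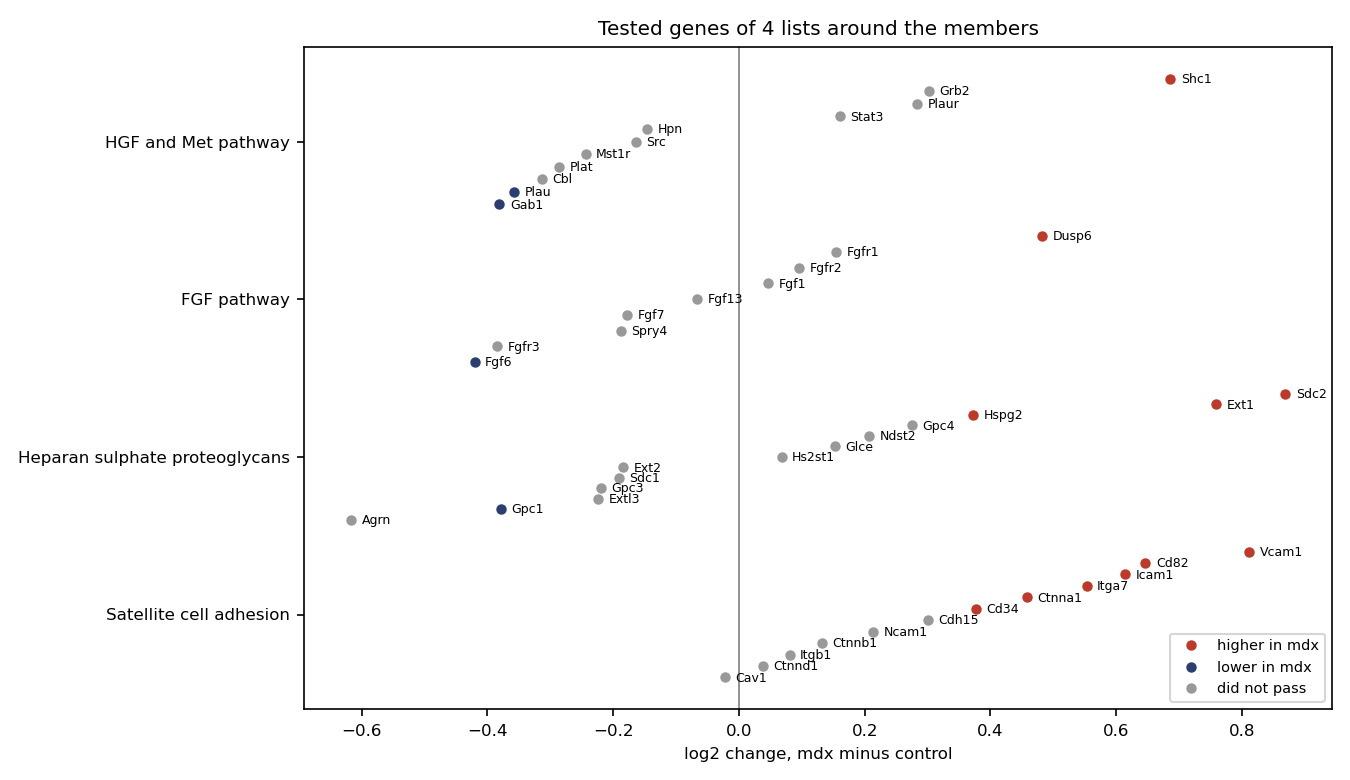
Log2 change, mdx minus control, of each tested gene of the HGF and Met, FGF, heparan sulphate proteoglycan and satellite cell adhesion lists, coloured by call. Sdc2 at 0.87 and Vcam1 at 0.81 lie furthest to the right, and the adhesion list has 6 genes called higher and 0 lower, 2 of which (Vcam1 and Icam1) passed the filter through their mdx arrays alone, against 15.8% and 17.8% of all tested probe sets. Gpc1, called lower, changed sign with the hybridization controls but stayed below the median probe set.

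Several of the 10 genes are also expressed by cells other than satellite cells, and the markers of such cells differed by cell type. Macrophage and fibroblast markers were mostly higher in mdx, and those of the other types were not. Of 11 tested macrophage markers, 11 were higher in mdx, each by its brightest probe set. Of these, 3 (Ptprc, Cd53 and Lgals3) passed the filter through their mdx arrays alone and had to differ to be tested. Another Csf1r probe set did not pass, at 0.01. The summed intensity of the macrophage markers was 41848 to 57950 in mdx and 2617 to 5466 in control. Itgam was near or below 0 in both groups and Adgre1 was below 0 on average in control. Of 7 smooth muscle and pericyte markers, 2 were higher (Acta2 and Mcam), 1 was lower (Myh11) and 4 did not pass. Their sum was 10218 to 12744 in mdx and 6992 to 8040.0 in control. Much of that difference lay in Acta2, with means of 5710.5 in mdx and 2232 in control. Myh11 had means of 375 in mdx and 631 in control, and Tagln and Cnn1 did not pass. The pericyte marker Pdgfrb, which did not pass, had 278 ± 46.4 in mdx and 255 ± 38.1 in control. Of 11 endothelial markers, 1 was higher (Cd34), 2 were lower (Flt1 and Vwf) and 8 did not pass, and the sum was 7940 to 9818 in mdx and 9380.4 to 11579 in control. Of 8 fibroblast markers 6 were higher and 2 lower, with sums of 74089 to 87301 in mdx and 39920 to 51113 in control. The 2 lower ones were Pdgfra, at -0.27 (limma adjusted p = 0.0476), and Dcn, at -0.34 (limma adjusted p = 0.0294). Other probe sets of Col1a1 and Col1a2 did not pass, at 0.36 and -0.06, while those of Col3a1 were called higher, at 2.22 and 1.74.

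Of 3 Schwann cell markers 0 were higher and 1, Mbp, was lower, although another Mbp probe set was called higher (0.44, adjusted p = 0.00561), with sums of 3667 to 4733 in mdx and 3576 to 6574 in control. Of 4 lymphocyte markers 0 were higher and 2 lower, with sums of 1141 to 1526 in mdx and 1479 to 2824 in control, and Cd3e and Cd3g had means below 0 in both groups. Of 10 fibre markers 7 were lower and 3 did not pass. Markers of the myogenic line were mostly but not all higher. Of 6 tested satellite cell and myoblast markers that are not members 4 were higher (Myod1, Myog, Itga7 and Chrna1) and 1, Des, was lower, at -0.45. Chrna1 was at 2.37, and Itga7 at 0.55, with another Itga7 probe set that did not pass, at 0.10. Myod1 stood at 0.85 (adjusted p = 0.00015) and Myog at 1.55 (adjusted p = 1.25e-05), and Myf5, at 0.27, did not pass (adjusted p = 0.0619). The part of any of these cell types in the changes of Vcam1, Notch3 and Hes1 was not tested.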

How the data were processed

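Transcript levels were measured on 10 oligonucleotide arrays, 5 of mdx and 5 of control gastrocnemius, grouped by the array titles. The authors deposited probe set intensities on a linear scale. Whether and how they were background-corrected and scaled, and with which software, is not given in the sources used here. The deposited scaling was kept, since no array's trimmed mean lay over 10% from the mean of all 10 (largest 8.82%). Depth has no counterpart here, and the number of arrays limits the precision. Gene names came from the platform annotation, which gave 1 gene for 10833 probe sets, several for 396 and none for 1193. Probe sets with several genes named no gene.

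The 66 control probe sets were left out. Analysis was on log2(intensity + 372.4), with values below 0 counted as 0 and the offset being the root mean square of the 27659 values below 0. The 7612 probe sets tested were those with at least 5 arrays above 134.2, the 40th percentile of the table. The test was limma 3.58.1, run in R 4.3.3 (variance trend, two-sided, Benjamini-Hochberg over all 7612, threshold 0.05). Probe sets of the 10 genes below the filter were compared by exact permutation of the 10 arrays (scipy 1.17.1). The fit was also tested on simulated arrays with normal noise and, for each probe set, the same SD in both groups. That run checked the fit in this simpler setting and bears on none of the calls above. Other lists used the brightest probe set of each gene. All probe sets of the 10 genes are named, and from each list up to 5 called genes with the smallest p and the direct partners of the 10. The genes and lists were chosen with earlier results of these data known. Alternatives changed the offset, filter, scaling, variance model or floor, left out arrays, or took the replicate number as a block. Same-numbered arrays had correlations of deviations from -0.16 to 0.04, so the numbers were not taken to pair them.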

Additional observations from a re-analysis of the deposited data

Results flagged for a closer look

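For 3 of the 28 sets of 5 arrays (14 probe sets in 2 groups), 1 array stood apart from the other 4 by most of the range. Chance flags about 1 in 20 such sets. In mdx replicate 5, Met was at -404, while the other mdx arrays lay between -78.4 and -59.2, all below 0. In mdx replicate 2, Hgf was at 112, against 18.4 to 26.2 on the other mdx arrays, and control replicate 2 was the highest control array, at 95.4. In control replicate 4, Sdc4 was at 283, the 1 value above 0 for this probe set, against -539 to -356 on the other control arrays. None of these 3 probe sets passed the filter.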

How the results depend on the processing

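Over 22 alternatives the count of the 14 probe sets called higher was 1 to 3, against 2 as reported, and the count called lower was 0 or 1, against 1. Leaving out 1 array in turn gave 1 to 3 higher and 1 lower, and 1092 to 1216 higher and 1176 to 1322 lower over all probe sets, against 1202 and 1352. One probe set was called higher with the filter on all 10 arrays (Vcam1 and Notch3 are then not tested, and Cdh15 is called), with values raised to the noise level (Notch3 alone), without control replicate 1 (Vcam1 alone), and without mdx replicates 1 and 5 together (Vcam1 alone), an alternative added after the data were seen. With the hybridization controls 3 were called higher and 0 lower, and over all probe sets 3527 higher and 125 lower. The replicate block left 2 higher and 1 lower, and changed none of the calls of the 5 tested probe sets. The log2 change of Vcam1 ranged from 0.05, with values raised to the noise level, to 1.34, and was 0.49 to 1.34 over the offsets tried. That of Notch3 ranged from 0.41 to 0.98, both ends set by the offset. An offset of 156.8, also added after the data were seen, gave 1.34 and 0.98. Signs changed for Hes1 with the hybridization controls (0.13) and for Notch1, which was uncalled and ranged from -0.045 to 0.18 with 1 array left out (below 0 without mdx replicate 5 or control replicate 4), and without mdx replicates 1 and 5 (-0.096). Below the filter, signs changed for Cdh15 161366_r_at without control replicates 1, 3 or 5 (-0.0058 to 0.076 over the arrays left out) and for Hgf without mdx replicate 2 or control replicates 1, 3 or 5 (-0.058 to 0.049 over the arrays left out). The causes were not tested. Signal over background limits Met, Hgf, Sdc3, Sdc4 and Fgfr4, none of which could be fitted with the filter.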
